A study of Saccharomyces cerevisiae with 29 samples.

Results

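Small nucleolar RNAs (snoRNAs) were described in budding yeast (Saccharomyces cerevisiae) as the 77 annotated rows typed snoRNA in a table of 20318 rows from total RNA sequencing. Membership was set by the annotation type, with no measured value in the rule. A row was tested if its mean over the libraries was at least 10 normalized reads, that is, reads divided by the submitters' size factor of each library. All 77 passed, among 16559 rows in all. By the annotation notes 45 are box C/D and 29 box H/ACA. The other 3 notes give no box: snR17a and snR17b encode U3, a C/D RNA counted with that class here, and NME1 is the RNA of RNase MRP, a nuclease that cuts ribosomal RNA precursors and is no guide.

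Box C/D RNAs pair with ribosomal RNA and direct 2′-O-methylation by a particle with the methyltransferase Nop1. Box H/ACA RNAs direct pseudouridylation by a particle with the pseudouridine synthase Cbf5. A few RNAs of either class (U3, U14, snR30, snR10) act in cleavage of the ribosomal RNA precursor. Yeast snoRNAs are made from their own promoters, as polycistronic precursors cut by the nuclease Rnt1, or from introns. Independent transcripts mostly end through the Nrd1-Nab3-Sen1 pathway, and the nuclear exosome, with its exonuclease Rrp6, trims the 3′ ends.

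The strains were W303 of mating type MATa with RAD5 and GAL. They carried the alleles can1-100, his3-11,15, trp1-1, ade2-1 and ura3 and a double allele of leu2. Cultures grew in rich medium with 2% glucose and were held in G1 by 5 µg/ml of the mating pheromone α-factor for 170 min at 25 °C. The groups were wild type (4 libraries), rad50::KAN (2), mre11::HIS (2), mre11::mre11-H125N (2), ku70::HIS (1), rrp6::TRP (2) and xrn1::ADE2 (2), written below as rad50Δ and so on. Another 2 libraries came from wild type let out of G1 into S phase with 0.033% of the alkylating agent methyl methanesulfonate (MMS) for 60 min, so MMS and cell-cycle stage cannot be told apart. The rad50Δ and rrp6Δ strains also carried URA3::GPD-TK7, a thymidine kinase cassette. Mre11 and Rad50 belong to the MRX complex, which acts at DNA ends, and H125N is an allele without Mre11 nuclease activity. Xrn1 degrades RNA in the cytoplasm from the 5′ end, and Ku70 binds DNA ends. RNA was taken by hot phenol, depleted of ribosomal RNA and sequenced with strand kept. All 7 comparisons with wild type share the same 4 wild-type libraries. Nothing in the labels says that libraries of a group came from separate cultures, so p-values measure the spread between these libraries, which may be technical.

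Each deleted gene stood between 0 and 15.8 normalized reads in its own deletion libraries and at 499 or more in the others. The libraries fell into ranges of depth that no label explains. Wild type 1 and 2, rad50Δ, mre11Δ and MMS held 7419447 to 15493490 reads over coding rows. Wild type 3 and 4, mre11-H125N, rrp6Δ and xrn1Δ held 18765423 to 32613640. Whole reads were not taken back for ku70Δ, but 1 read was worth 0.996 normalized reads there. Its coding rows summed to 19358000 normalized reads, so it lies in the deeper range. Within wild type the snoRNAs divided along the same line. For 46 of 77 snoRNA rows (59.7%) wild type 1 and 2 were both above wild type 3 and 4, and for 6 they were both below, while over all rows tested these shares were 22.0% for above and 23.2% for below. For the snoRNA rows, counts against the wild-type libraries of the same depth range are therefore given beside each comparison with wild type. Shares of all rows are not given for these splits of wild type, so their counts have no background beside them. Reads were counted in every row they overlap: YGL088W, an open reading frame row lying over snR10, held 99.5% to 100% of the value of snR10.

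Levels in wild type spread widely and divided by length. The members fell into 40 rows of up to 136 bases, all C/D, and 37 of 161 bases or more. Per base of row, the median wild-type level was 4.36 normalized reads in the shorter rows and 146 in the longer ones. The highest per base was snR190, a C/D RNA of 190 bases, at 1496 normalized reads per base, followed by snR17a (U3) at 854 and the H/ACA RNA snR37 at 570.3. The lowest were the C/D RNAs snR47 at 0.911, snR53 at 0.547 and snR58 at 0.231. Library preparation can lose short RNAs, and its part in these levels was not tested. The highest wild-type library was over 2 times the lowest for 16 of the 40 shorter rows and 8 of the 37 longer ones. The widest spread was that of the C/D RNA snR68, at 2419, 2844, 261 and 153 normalized reads in wild type 1 to 4, where the first pair stood far above the second. The H/ACA RNA snR80 was at 6837, 6021, 3797 and 457, with wild type 4 alone far below.

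Of the 77 rows, 8 lie inside a coding row of the same strand, 6 of them C/D (snR18 in EFB1, snR24 in ASC1, snR38 in TEF4, snR39 in RPL7A, snR59 in RPL7B, snR54 in IMD4) and 2 H/ACA (snR44 in RPS22B, snR191 in NOG2). They are called intronic here, since yeast snoRNAs within protein genes lie in introns. Another 17 C/D rows form 5 polycistronic groups, taken as neighbours on 1 strand with under 500 bases between them. That leaves 24 independent C/D rows, 27 independent H/ACA rows and NME1. NME1 and snR66 lie 163 bases apart on 1 strand and were not treated as a group. Both U3 genes are near copies, and so are snR39 and snR59, which guide the same methylation at A807 of the large subunit RNA. How reads with several alignments were counted is not given in the sources used here, so the separate values of such pairs are uncertain.

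Without Rrp6, snoRNAs moved in both directions, and counts differed between the C/D and H/ACA rows. In rrp6Δ against wild type 26 of 77 rows rose (33.8%, against 21.3% of all rows tested) and 12 fell (15.6%, against 6.95%), by limma with Benjamini-Hochberg adjustment over all rows at 0.05. The median change was 0.05 on the log2 scale, beside 0.11 over all rows. Of 47 C/D rows 25 rose and 3 fell, with a median log2 change of 1.08. Of 29 H/ACA rows 1 rose and 9 fell, with a median of -0.40. Against wild type 3 and 4 only, which share the depth range of rrp6Δ, 30 rose and 11 fell, and against wild type 1 and 2 only 26 rose and 22 fell.

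**Figure D1:**
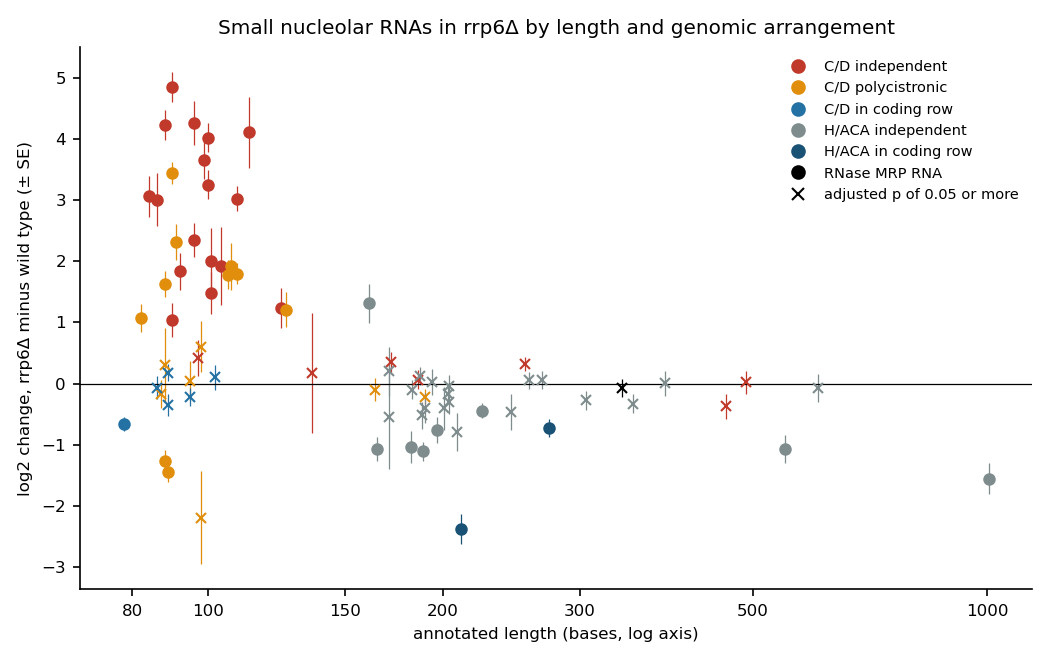
Log2 change in rrp6Δ against wild type (vertical axis, ± SE) by annotated length in bases (log axis) for the 77 snoRNA rows, coloured by class, with crosses for rows that did not pass the test. Short independent C/D rows reach up to 4.86, while most of the longer H/ACA rows lie near or below 0.

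The rise lay mostly in rows of short independent C/D RNAs. A row counts every read that overlaps it, so mature RNA cannot be told from longer forms that reach past its 3′ end. The part of library preparation in these changes was not tested. Of 24 independent C/D rows 17 rose and none fell, all of them among the 19 of up to 136 bases, whose median log2 change was 3.01. The largest change was that of snR71 (chromosome 8, 411228 to 411317, build R64), a guide for methylation at A2946 of the large subunit RNA. It stood at 113, 71.6, 65.1 and 104 normalized reads in wild type and at 2146 and 2980.0 in rrp6Δ. Both rrp6Δ libraries were far above all wild-type libraries, and the means differed 29.0-fold (log2 4.86 ± 0.25 SE, adjusted p = 5.67e-08).

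snR56 (chromosome 2, 88190 to 88277), which guides methylation at G1428 of the small subunit RNA, stood at 114, 92.1, 137 and 159.9 in wild type against 1991 and 2727 in rrp6Δ. Its groups did not overlap (log2 4.23 ± 0.25 SE, adjusted p = 1.48e-07). snR62 (chromosome 15, 409765 to 409864), a guide for U1888 of the large subunit RNA, stood at 127, 106, 70.8 and 66.7 in wild type and at 1438 and 1489 in rrp6Δ (log2 4.02 ± 0.24 SE, adjusted p = 1.48e-07). The rrp6Δ libraries were again the higher ones without overlap.

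snR65, a guide for U2347 of the large subunit RNA, stood at 113, 109, 96.0 and 106 in wild type and at 942 and 1106 in rrp6Δ (log2 3.26 ± 0.24 SE, adjusted p = 1.09e-06). snR87, a guide for A436 of the small subunit RNA, stood at 284, 184, 185 and 289 against 1829 and 1929.7 (log2 3.02 ± 0.20 SE, adjusted p = 4.85e-07). Neither overlapped between groups. snR58, the lowest snoRNA per base in wild type and a guide for C663 of the large subunit RNA, stood at 33.4, 22.2, 22.0 and 11.0 in wild type against 331 and 525 in rrp6Δ (log2 4.27 ± 0.36 SE), again without overlap.

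The other independent C/D rows that rose were snR48, snR47, snR79, snR66, snR39B, snR69, snR60, snR52, snR64, snR13 and snR50, with log2 changes from 4.11 (snR48) to 1.04 (snR50). snR52, which guides methylation of both subunits, stood at 287, 365, 155 and 196 in wild type against 764 and 949.7 in rrp6Δ (log2 1.84 ± 0.30 SE, adjusted p = 4.93e-04). The short independent C/D rows that did not pass were snR40 and snR68, at log2 0.42 and 0.18. None of the 5 longer independent C/D rows (snR4, snR45, snR63, snR17a and snR17b) passed. The U3 row snR17a stood at 532888, 468668, 337548 and 334877 in wild type against 398755 and 434119 in rrp6Δ, inside the wild-type range (log2 0.02, adjusted p = 0.948). The other U3 row, snR17b, was at log2 -0.38 (adjusted p = 0.202).

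**Figure D2:**
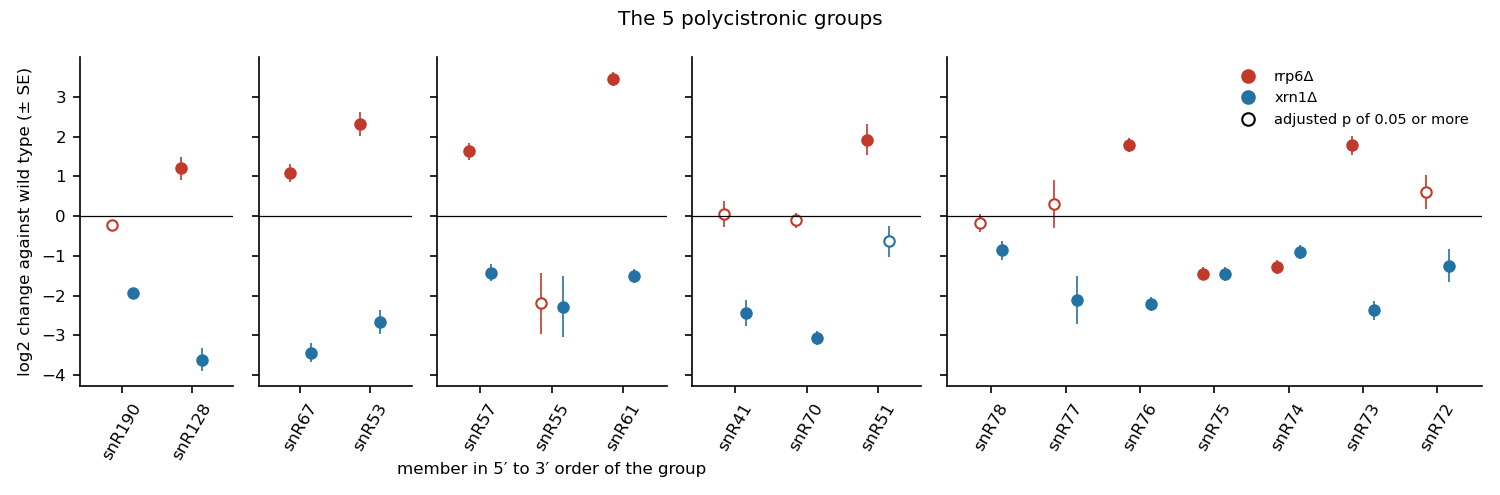
Log2 change against wild type (± SE) of the 17 members of the 5 polycistronic groups in rrp6Δ (red) and xrn1Δ (blue), in 5′ to 3′ order, with open circles for members that did not pass the test. In rrp6Δ the last member rose in 4 of the 5 groups, and snR75 and snR74 fell inside the group of 7.

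Members of the same polycistronic precursor differed from each other. Of 17 rows 8 rose and 2 fell in rrp6Δ. The last member rose in 4 of 5 groups (snR61, snR53, snR51 and snR128), with a median log2 change of 1.92 over the 5. Of the other 12 members 4 rose and 2 fell, with a median of -0.03. snR61 (chromosome 12, 794486 to 794575), a guide for A1133 of the large subunit RNA, stood at 258, 273, 195 and 214 in wild type against 2236 and 2902 in rrp6Δ. Its groups were far apart (log2 3.45 ± 0.18 SE, adjusted p = 5.83e-08). Its upstream neighbour snR55 was at 1003, 1756, 704 and 176 in wild type against 73.5 and 299.6 in rrp6Δ, and the groups overlapped (log2 -2.20 ± 0.77 SE, adjusted p = 0.0522).

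In the pair snR190 and snR128 only the second passed. snR128 (U14), an essential RNA needed for release of the 18S precursor, stood at 13025, 14743, 16668 and 10022 in wild type against 23606 and 40336 in rrp6Δ, without overlap (log2 1.21 ± 0.29 SE, adjusted p = 0.00741). snR190, upstream of it, was at 250470 to 302562 in wild type against 236230 and 252980 in rrp6Δ (log2 -0.21, adjusted p = 0.202). In the group of 7 on chromosome 13, snR76 and snR73 rose (log2 1.80 and 1.78). Between them snR75, a guide for G2288 of the large subunit RNA, fell from 333, 266, 346 and 293 in wild type to 95.9 and 131 (log2 -1.45 ± 0.17 SE, adjusted p = 3.32e-05). The next, snR74, a guide for A28 of the small subunit RNA, fell from 256, 213, 219.6 and 234 to 78.6 and 114 (log2 -1.27 ± 0.18 SE, adjusted p = 1.27e-04). The rrp6Δ libraries of both lay below all wild-type libraries.

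Of the 6 intronic C/D rows only snR59 passed, downward (log2 -0.66 ± 0.11 SE, adjusted p = 5.96e-04), which was lost in 1 of 22 alternative settings. It stood at 2969, 2372, 2709 and 2575 in wild type against 1618 and 1731 in rrp6Δ, without overlap. Both intronic H/ACA rows fell. snR44 (chromosome 12, 856710 to 856920), which guides pseudouridines in both subunits from within the ribosomal protein gene RPS22B, stood at 32076, 24874, 19278 and 13722 in wild type against 3841 and 4396 in rrp6Δ. It had the lowest log2 change of the 77 rows, 5.46-fold lower in mean without overlap (log2 -2.38 ± 0.24 SE, adjusted p = 1.25e-05). snR191, in NOG2, fell by 0.73 ± 0.14 SE on the log2 scale (adjusted p = 0.00198).

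A host row counts the reads of the snoRNA inside it, so hosts are given after subtraction of the snoRNA. The remainder of RPS22B averaged 4317 normalized reads in wild type and 3509 in rrp6Δ. snR44 made up 83.3% of the host row in wild type (77.7% to 85.4% over libraries) and 54.0% in rrp6Δ (53.9% to 54.1%). The remainder of NOG2, a ribosome biogenesis GTPase gene, averaged 4901 in wild type and 5402 in rrp6Δ, where snR191 made up 87.2% and 78.5% of the row. For a C/D example, the share of snR54 in IMD4 was 12.9% in wild type (12.05% to 14.0%) and 19.01% in rrp6Δ (18.5% to 19.5%). The log2 change of the snoRNA was below that of its host remainder in 2 of 8 rows, snR44 and snR191. These shares carry no test.

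Among the 27 independent H/ACA rows 7 fell and 1 rose in rrp6Δ, with a median log2 change of -0.33. snR86 (chromosome 13, 762110 to 763113), at 1004 bases the longest snoRNA row, guides U2314 of the large subunit RNA. It stood at 225405, 202883, 102567 and 121477 in wild type against 53736 and 50917 in rrp6Δ, 3.12-fold lower in mean without overlap (log2 -1.56 ± 0.25 SE, adjusted p = 4.67e-04). snR189, which guides sites in both subunits, stood at 17842, 13606, 15500.3 and 12525 against 6018 and 7737 (log2 -1.11 ± 0.15 SE, adjusted p = 1.06e-04). Its libraries did not overlap either.

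The others that fell were snR84, snR49, snR36, snR46 and snR31, from -1.08 (snR84) to -0.45 (snR31) on the log2 scale. The H/ACA row that rose was snR161, at 161 bases the shortest of its class, with 828, 761, 1689.9 and 1390.0 in wild type against 2228 and 3373 in rrp6Δ (log2 1.31 ± 0.32 SE, adjusted p = 0.00814). The H/ACA RNAs of precursor cleavage did not pass: snR30 was at log2 -0.07 (adjusted p = 0.847) and snR10 at -0.47 (adjusted p = 0.261). Across the 77 rows length and log2 change had a Spearman correlation of -0.47, given as a description because the short rows are all C/D and all rows share libraries.

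rrp6Δ and rad50Δ carry the same URA3::GPD-TK7 cassette and were also compared directly. Here 20 rows were higher in rrp6Δ (20.6% of all rows tested were) and 14 lower (10% of all rows). The largest differences upward were those of snR56 (log2 4.12), snR71 (3.86) and snR58 (3.57). snR44 was at -2.68 and snR86 at -1.88. snR55, which did not pass against wild type, was 11.4-fold lower in mean in rrp6Δ than in rad50Δ, where it stood at 1331 and 2924 (log2 -3.72 ± 0.88 SE, adjusted p = 0.00884). Leaving out a library of either group left 6 to 9 lower rows. The depth ranges of these groups differ, so depth range and genotype cannot be told apart here.

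Annotated rows just after the 3′ ends of snoRNAs were set beside the snoRNAs themselves. On the same strand, 24 rows of cryptic unstable transcripts (CUTs, RNAs annotated because they build up without nuclear exosome activity) start 49 to 297 bases after the end of a snoRNA row. Of these 23 could be tested, and all 23 rose in rrp6Δ, with a median log2 change of 5.67 and a range from 2.92 to 7.31. The log2 change of the CUT row exceeded that of its snoRNA in 22 of 23 pairs. CUT annotation rests on mutants of this kind, so neither the rise nor its excess over the snoRNAs is an independent finding. Some of the 23 rows reached the mean needed for testing only through the rrp6Δ libraries. An example is CUT858 after snR35, at 150 and 249 in rrp6Δ and 1.71 to 5.57 in wild type. The count of rises and the median are therefore partly set by the filter. Of the other 737 CUT rows tested 627 (85.1%) rose, with a median of 2.58. The 24 rows took 22.4% and 23.3% of the summed CUT rows in rrp6Δ, against 1.89% to 2.83% in wild type.

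**Figure D3:**
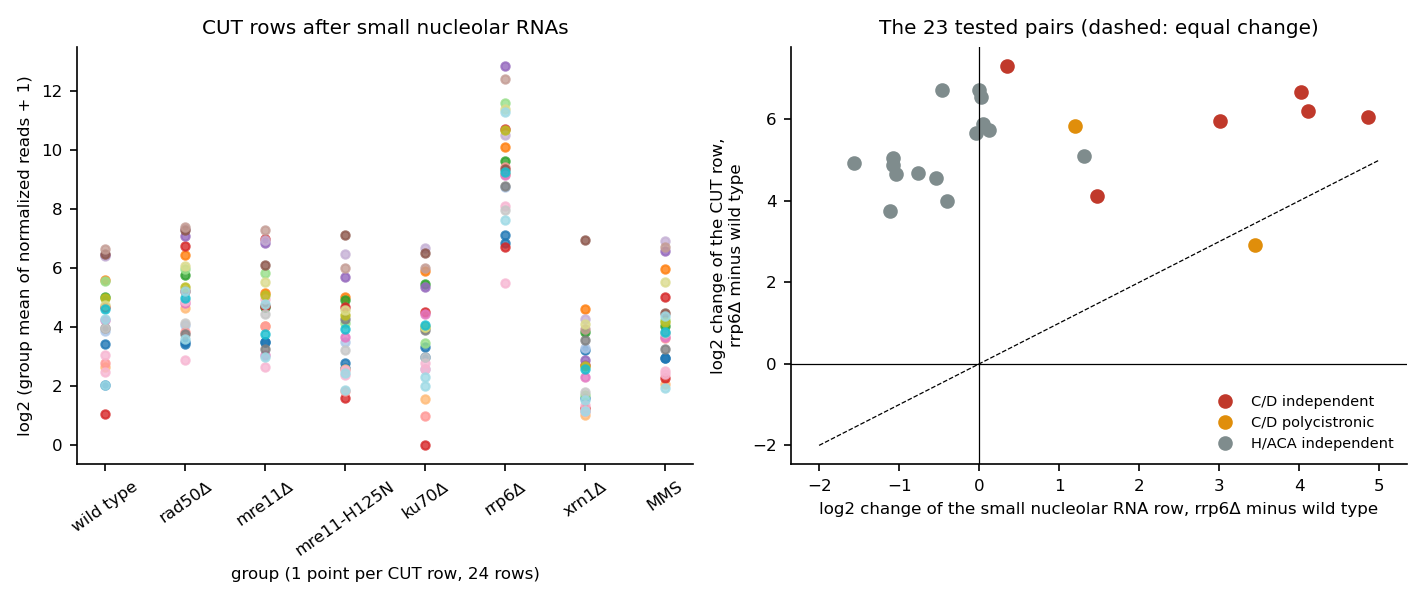
Left, group means of normalized reads (log2 of the mean + 1) of the 24 CUT rows after snoRNAs. Right, log2 change in rrp6Δ against wild type of each tested CUT row and of its snoRNA, where 22 of 23 points lie above the dashed line of equal change. CUT rows were annotated because they build up without nuclear exosome activity.

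The largest change was after snR45, a C/D RNA whose annotation note names no ribosomal RNA target. CUT433 starts 152 bases after it and stood at 36.2, 18.8, 4.07 and 15.5 normalized reads in wild type against 2279.8 and 2752 in rrp6Δ (log2 7.31 ± 0.59 SE, adjusted p = 2.19e-06). snR45 itself was at log2 0.35 (adjusted p = 0.128). After the H/ACA RNA snR3, CUT221 was at 121, 95.5, 30.9 and 97.8 in wild type against 6865 and 7943 in rrp6Δ (log2 6.56 ± 0.39 SE). After snR71, CUT180 was at 27.9, 27.3, 15.5 and 29.2 against 1563 and 1820.2 (log2 6.06 ± 0.28 SE, adjusted p = 1.95e-08). None of these overlapped between groups.

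snoRNAs that fell had such rows as well. CUT789, 160 bases after snR86, stood at 20.9, 22.2, 17.9 and 11.9 in wild type against 509 and 640.1 in rrp6Δ (log2 4.93 ± 0.48 SE, adjusted p = 8.02e-06). Of the snoRNAs of the 23 pairs 8 rose and 6 fell, with a median log2 change of 0.03. The pair in which the snoRNA changed more was snR61 and CUT748 (log2 3.45 and 2.92).

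A list of 25 genes for snoRNA 3′ end formation and trimming was read beside these values. In rrp6Δ, where 8.64% of all coding rows rose and 9.19% fell, 6 of them rose and 2 fell, with a median log2 change of 0.07. Those that rose were NRD1, the RNA-binding subunit of the termination complex (log2 1.88 ± 0.18 SE, adjusted p = 8.51e-06), its partner NAB3 (0.81), the poly(A)-binding protein gene NAB2 (1.23), AIR2 of the TRAMP complex (0.89), PCF11 (0.73) and SSU72 (0.44), both of 3′ end formation. Besides the deleted RRP6, LHP1, the yeast La protein gene, fell (-0.41). Of 9 core particle proteins GAR1, of the H/ACA particle, fell (log2 -0.96 ± 0.24 SE, adjusted p = 0.00886) and none rose. None of 10 assembly factors passed by limma, and an unadjusted p under 0.05 was reached by 0 of them.

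In xrn1Δ nearly the whole class was low. Of 77 rows 75 fell (97.4%, where 28.9% of all rows tested did) and none rose, where 35.1% did. The median log2 change was -2.46, beside 0.13 over all rows. By limma at an unadjusted p under 0.05, 0 rows were higher, and edgeR and DESeq2 on whole reads called 0 and 0 higher. All wild-type libraries lay above both xrn1Δ libraries in 74 rows, a count for which no share over all rows was computed. Against wild type 3 and 4 only, of the same depth range, 72 fell. The rows that did not pass were snR51, the last of its polycistronic group, and snR68. Fewer snoRNA molecules and a lower yield of these RNAs in the library cannot be told apart in such data.

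The smallest adjusted p belonged to snR31, an H/ACA guide for U999 of the small subunit RNA. It stood at 42768, 31836, 34491 and 32721 in wild type against 4661 and 4273 in xrn1Δ (log2 -2.98 ± 0.12 SE, adjusted p = 9.30e-10). The C/D RNA snR63, a guide for A2256 of the large subunit RNA, was at 35737, 34121, 30378 and 30920.4 against 5625 and 5949 (log2 -2.50 ± 0.11 SE, adjusted p = 3.04e-09). snR45 was at 28714, 21274, 25661 and 24810.4 against 2966 and 2515 (log2 -3.19 ± 0.16 SE). In each case both xrn1Δ libraries were far below all of wild type.

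The H/ACA RNAs snR9 and snR5 fell by 2.68 and 3.31 on the log2 scale. The farthest falls were those of the H/ACA rows snR81 (log2 -4.50 ± 0.35 SE) and snR85 (-4.13 ± 0.40 SE). snR30 stood at 31320.4 and 27308 in xrn1Δ and at 193940 to 291584 in wild type. The U3 row snR17a was at 84114 and 87189, below its wild-type values given above (log2 -2.26 ± 0.19 SE). U14 (snR128) was at 1390.4 and 859 (log2 -3.61 ± 0.29 SE).

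Intronic snoRNAs and their hosts were low together, with an exception. snR191 fell by 2.68 ± 0.14 SE on the log2 scale (adjusted p = 1.45e-08), while the remainder of its host NOG2 averaged 4693 normalized reads in xrn1Δ and 4901 in wild type. Its share of the host row was 52.1% in xrn1Δ and 87.2% in wild type. The remainder of ASC1, a ribosomal protein gene, averaged 10396 against 60467, with snR24 at 29.9% of the row in xrn1Δ and 25.1% in wild type. All 8 host rows fell, counted with their snoRNA reads.

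**Figure D4:**
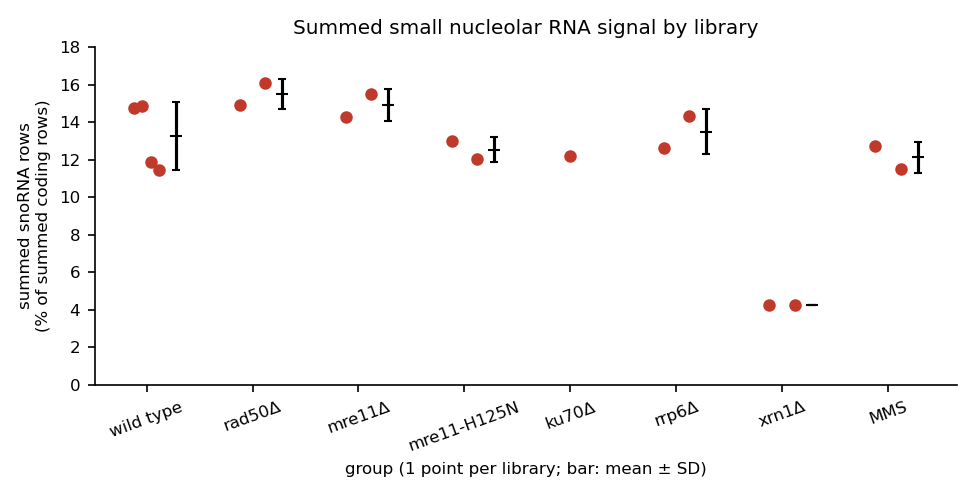
Summed snoRNA rows as a percent of summed coding rows in each of the 17 libraries, with mean ± SD per group. The xrn1Δ libraries stand at 4.26% and 4.25%, and all others between 11.5% and 16.1%.

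The sum of all 77 rows was 13.2% ± 1.82 (SD, n = 4) of the sum of coding rows in wild type and 4.25% ± 0.00790 (SD, n = 2) in xrn1Δ. On the mean log2 scale the share was 3.09-fold lower, with an exact two-sided permutation p = 0.0667, the smallest that 15 arrangements allow. Coding rows themselves summed lower in xrn1Δ on the deposited scale. With factors that equalise the coding sums, 67 of 77 snoRNA rows fell and the median log2 change was -1.61. Of all 16559 rows 1908 fell and 10620 rose with those factors. With factors taken from the snoRNA rows themselves, 21 rose and 21 fell, while of all rows 15622 rose and 133 fell. Such factors centre the snoRNA rows by construction, so these counts cannot show a change of the whole class.

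Other noncoding RNAs of the table did not all move the same way in xrn1Δ. All 6 snRNA rows, spliceosomal RNAs, fell, with a median log2 change of -2.74. Among them snR7-L and snR7-S held the same means and log2 change (-2.74), so 1 signal is counted in both rows. Of 8 ncRNA rows 4 fell and 2 rose, and of 85 tRNA rows 49 fell and 8 rose. Summed tRNA rows stood at 0.0876% and 0.0732% of coding rows in xrn1Δ, within the wild-type range of 0.0279% to 0.0916%. Summed ncRNA rows stood at 0.374% and 0.217% in xrn1Δ and at 6.41% to 7.49% in wild type. They were also low outside xrn1Δ, at 0.391% and 3.94% in mre11-H125N, 0.637% in ku70Δ and 1.06% and 4.96% in rrp6Δ. Summed snRNA rows stood at 1.49% and 1.44% of coding rows in xrn1Δ and at 2.91% to 4.02% in wild type. In wild type the ncRNA rows were the larger of these sums. A share against snRNA rows alone was not computed. Against the sum of ncRNA and snRNA rows instead of coding rows, the summed snoRNA share differed from wild type by log2 0.95 in xrn1Δ, a change of direction. It was at 1.07 in mre11-H125N, 1.46 in ku70Δ and -0.14 in mre11Δ, where the log2 difference of the share of coding rows was -0.07, -0.11 and 0.18, so the direction turned there too. The part of library preparation in these values was not tested.

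Genes of the particle proteins were low as well, on a background in which 35.1% of all coding rows rose and 32.8% fell in xrn1Δ. All 9 core particle genes fell, with a median log2 change of -1.25, among them GAR1 (log2 -3.43 ± 0.24 SE, adjusted p = 9.62e-08), the methyltransferase gene NOP1 (-1.93) and NOP56 (-1.73). Of 10 assembly factors 5 fell and none rose. Of the 25 processing genes 8 rose and 10 fell. PCF11 was at 1.42 and MTR4, the exosome helicase gene, at -1.62. Of the 23 CUT rows after snoRNAs 14 fell and none rose, beside 199 that fell and 110 that rose of the other 737 CUT rows. The lowest was CUT150 after snR48 (log2 -3.68 ± 0.45 SE).

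**Figure D5:**
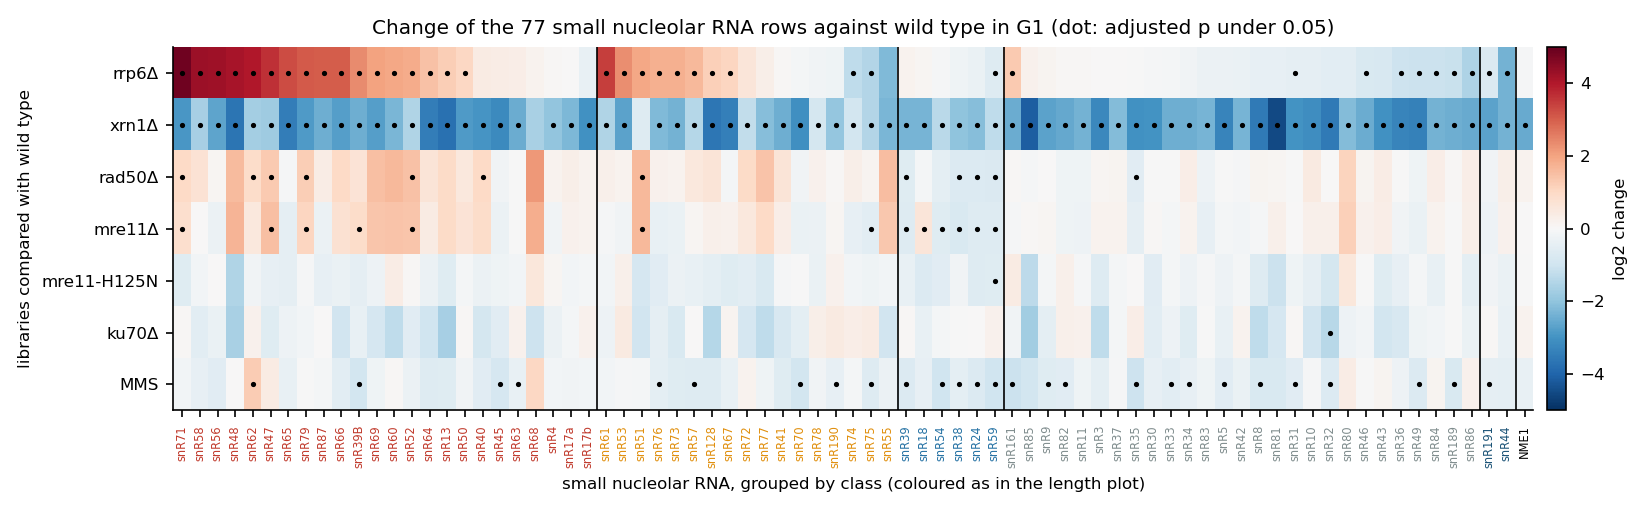
Log2 change against wild type of the 77 snoRNA rows (columns, grouped by class and ordered by the change in rrp6Δ) in 7 comparisons (rows), with a dot where the adjusted p was under 0.05. The xrn1Δ row is dotted in 75 columns, and the mre11-H125N and ku70Δ rows in 1 each.

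In rad50Δ and mre11Δ few snoRNA rows passed the test. In rad50Δ 7 rows rose and 5 fell of 77 (9.09% and 6.49%), where 12.4% and 9.32% of all rows tested did. In mre11Δ 7 rose and 6 fell (9.09% and 7.79%), beside 10.7% and 9.84% of all rows. These shares lay a little under those of all rows. By limma at an unadjusted p under 0.05, 19 snoRNA rows were higher and 6 lower in rad50Δ. In mre11Δ 14 were higher and 10 lower at that threshold. Against wild type 1 and 2 only, of the same depth range, 6 rose and 5 fell in rad50Δ, and 3 rose and 5 fell in mre11Δ. Against wild type 3 and 4 only, 28 rose in rad50Δ and 27 in mre11Δ, with no share of all rows to set beside them.

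Single libraries moved these counts. In rad50Δ 4 rose and 2 fell without rad50Δ library 1, and 0 rose and 1 fell without library 2. In mre11Δ 1 rose and 3 fell without mre11Δ library 1, and 3 rose and 3 fell without library 2. Without wild type 2, 14 rose in rad50Δ and 11 in mre11Δ. In fits of only the groups compared 0 rose and 2 fell in rad50Δ, and 0 rose and 2 fell in mre11Δ.

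The rows that rose in rad50Δ were short C/D RNAs, namely snR47, snR51, snR52, snR62, snR71, snR79 and snR40. snR52 stood at 507 and 838 in rad50Δ and 603 and 633 in mre11Δ, above its wild-type values given above (log2 1.45 ± 0.30 SE, adjusted p = 0.00607 in rad50Δ and log2 1.37 ± 0.30 SE, adjusted p = 0.00795 in mre11Δ). snR51, which guides methylation of both subunits, was at 389 and 533 in rad50Δ and 569 and 369.6 in mre11Δ, against 203, 276, 90.3 and 97.8 in wild type (log2 1.60 and 1.61). In these rows the groups did not overlap.

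snR47, a guide for sites in both subunits, was at 206 and 221 in rad50Δ and 311 and 189.9 in mre11Δ against 103, 136, 54.5 and 66.7 in wild type. It rose in both without overlap, at log2 1.33 and 1.51. snR79 and snR71 also rose in both, at log2 1.21 and 1.00 in rad50Δ and 1.07 and 0.84 in mre11Δ. snR62 passed in rad50Δ (log2 0.93) and was at 0.53 in mre11Δ. snR39B passed in mre11Δ (log2 0.93) and was at 0.68 in rad50Δ. In mre11Δ the calls of snR79, snR71 and snR39B were lost in 10, 9 and 10 of 22 alternative settings, and those of snR79, snR71 and snR62 in rad50Δ in 6, 4 and 5. The difference between the deletions was not tested.

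The rows that fell were mostly intronic. Of the 6 intronic C/D rows 4 fell in rad50Δ and 5 in mre11Δ. snR59 was at 1583 and 1612 in rad50Δ and 1832 and 1532 in mre11Δ, below wild type at 2372 to 2969 (log2 -0.73 ± 0.11 SE, adjusted p = 9.59e-04 and log2 -0.66 ± 0.11 SE, adjusted p = 0.00165). snR38, a guide for G2815 of the large subunit RNA, was at 4123 and 3517 in rad50Δ and 3932 and 3384 in mre11Δ, against 7506, 5298, 5655 and 6567 in wild type (log2 -0.70 and -0.76). Both rows were below all wild-type libraries in both deletions. snR39 and snR24 fell in both, and snR54 passed in mre11Δ (log2 -0.62 ± 0.18 SE, adjusted p = 0.0308, lost in 9 of 22 settings).

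Host rows TEF4, RPL7A, RPL7B and IMD4 fell in both deletions. After subtraction of snR38, the remainder of TEF4, a translation elongation factor gene, averaged 21024 in rad50Δ and 22915 in mre11Δ against 30002 in wild type. The exception was snR18 in EFB1, another elongation factor gene, which rose in mre11Δ (log2 0.61 ± 0.20 SE, adjusted p = 0.0486). It stood at 25347 and 23035 there and at 21254, 14801, 13978 and 14394 in wild type, and the EFB1 remainder averaged 33996 against 23439.5. Outside introns, the H/ACA RNA snR35 fell in rad50Δ (log2 -0.56, adjusted p = 0.0392) and snR75 in mre11Δ (log2 -0.53, adjusted p = 0.0439). These calls were lost in 11 and 13 of 22 alternative settings.

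CUT rows after snoRNAs rose for 8 of 23 in rad50Δ and 6 of 23 in mre11Δ, beside 70 and 29 of the other 737 CUT rows. In rad50Δ 0 of the 23 and 14 of the others fell, and in mre11Δ 1 and 32. The one that fell in mre11Δ was CUT789 after snR86 (log2 -1.48 ± 0.48 SE, adjusted p = 0.0450), whose libraries overlapped with wild type. CUT180 after snR71 stood at 103 and 109.8 in rad50Δ and 146 and 104 in mre11Δ, above wild type at 15.5 to 29.2 (log2 2.09 ± 0.28 SE, adjusted p = 3.25e-04 and log2 2.30 ± 0.28 SE, adjusted p = 1.63e-04). CUT676, 295 bases after U14, was at 38.7 and 33.6 in rad50Δ, 24.3 and 26.5 in mre11Δ and 0, 0, 2.44 and 1.83 in wild type. It is near 0 in wild type, and both deletions lay above every wild-type library.

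In rad50Δ 12.8% of all coding rows rose and 12.1% fell, and in mre11Δ 12.1% and 11.9% did. Of the 25 processing genes 2 rose and 7 fell in rad50Δ, and 2 rose and 9 fell in mre11Δ. NRD1 (log2 0.70 and 0.83) and the helicase gene SEN1 (0.35 and 0.30) rose in both. RRP6 (-0.38 and -0.60) and the RNase III gene RNT1 (-0.73 and -0.59) fell in both. Of the 9 core particle genes 5 fell in rad50Δ and 4 in mre11Δ, led by NHP2 of the H/ACA particle (-0.82 and -0.92). Of the assembly factors RSA1 fell in both (log2 -0.76 and -1.03).

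With the mre11-H125N allele few rows passed. Of 77 rows 1 fell and none rose, where 0.38% and 0.96% of all rows tested did. It was snR59, at 1735 and 1749 against 2372 to 2969 in wild type, without overlap (log2 -0.60 ± 0.11 SE, adjusted p = 0.0212). The median log2 change was -0.24 against all of wild type and -0.03 against wild type 3 and 4 only. By limma at an unadjusted p under 0.05, 0 rows were higher and 16 lower. DESeq2 called 10 lower rows and edgeR 1, and 0 and 0 higher. Against wild type 3 and 4 only, of the same depth range, 1 rose and 2 fell, and against wild type 1 and 2 only 21 fell. The lower count was 0 without mre11-H125N library 1 and 5 without library 2, 2 without wild type 1 and 5 without wild type 3. GAR1 was the one core particle gene to pass (log2 -1.32).

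In the single ku70Δ library 1 row fell, where 0.344% of all rows did, and none rose, where 0.326% did. It was the H/ACA RNA snR32, a guide for U2191 of the large subunit RNA, at 11735 against 38540.1, 38703, 22879 and 26854 in wild type (log2 -1.40 ± 0.29 SE, adjusted p = 0.0492). Without wild type 1, or without wild type 2, no row passed, and 4 fell without wild type 3. By limma at an unadjusted p under 0.05, 1 row was higher and 16 were lower. Against wild type 1 and 2 only 19 fell, and against wild type 3 and 4 only none did. With 1 library the SE and adjusted p rest on a spread taken from the other groups, and the call of snR32 was lost in 8 of 18 alternative settings. The ku70Δ library lies in the depth range of wild type 3 and 4. The median log2 change of the snoRNA rows was -0.08 against those libraries only, and -0.31 against all of wild type.

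Between mre11Δ and mre11-H125N 12 rows were higher in mre11Δ (8.03% of all rows tested were) and 1 lower (6.81% were). snR48, a guide for G2791 and G2793 of the large subunit RNA, was at 605 and 421 in mre11Δ and 54.6 and 53.0 in mre11-H125N (log2 3.21 ± 0.67 SE, adjusted p = 0.0103). In wild type it stood at 248, 377, 51.2 and 116, a spread that covers much of this range. snR51 was at 569 and 369.6 against 88.8 and 76.2 (log2 2.46 ± 0.45 SE, adjusted p = 0.00450), and neither row overlapped between groups.

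snR47 (log2 1.92), snR71 (1.43), snR39B (1.39) and snR18 (1.29) were also higher in mre11Δ, and snR38 was lower (-0.60). The count of higher rows was 3 without mre11Δ library 1 and 2 without mre11-H125N library 1, and snR38 was lost without any 1 of the 4 libraries. The groups lie in different depth ranges, so allele and depth range cannot be told apart here.

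In MMS snoRNAs were mostly lower. Of 77 rows 26 fell (33.8%, against 22.6% of all rows tested) and 1 rose (1.299%, against 18.6%), with a median log2 change of -0.42 beside -0.05 over all rows. Against wild type 1 and 2 only, of the same depth range, 46 fell and 1 rose, with a median of -0.62. Against wild type 3 and 4 only 23 fell and 8 rose, with a median of -0.21. The lower count was 11 without MMS library 2. Of the 6 intronic C/D rows 5 fell, and of 29 H/ACA rows 13.

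snR59 was at 1244 and 1432 in MMS and 2372 to 2969 in wild type, so the groups did not overlap (log2 -0.99 ± 0.11 SE, adjusted p = 2.13e-05). snR35, whose predicted target is in the small subunit RNA, was at 23478 and 16876 against 45169.6, 30414, 48272 and 42973 (log2 -1.05 ± 0.18 SE, adjusted p = 4.70e-04), again apart. snR54 and its host row IMD4 fell together (log2 -0.99 and -0.98), and snR54 made up 12.8% of the host row in MMS and 12.9% in wild type. snR39, snR45 and snR189 fell by 0.69, 0.85 and 0.77 on the log2 scale.

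The row that rose was snR62, at 249.7 and 193 in MMS against 127, 106, 70.8 and 66.7 in wild type, without overlap (log2 1.29 ± 0.24 SE, adjusted p = 8.04e-04). CUT841, 199 bases after snR62, rose as well, from 30.7, 29.0, 15.5 and 29.2 in wild type to 39.1 and 51.0 (log2 0.80 ± 0.26 SE, adjusted p = 0.0262). Of the 23 CUT rows after snoRNAs it was the one that rose. CUT147 after snR46 and CUT748 after snR61 fell, at log2 -0.98 and -2.02. Of all coding rows 23.5% rose and 23.5% fell in MMS. All 9 core particle genes fell, from NHP2 (log2 -1.42) to RRP9, the U3 protein gene (-0.62). Of 10 assembly factors 2 fell, RSA1 (-1.18) and RVB1 (-0.42). Of the 25 processing genes 5 rose and 6 fell.

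The summed snoRNA share of coding rows differed less outside xrn1Δ. It was 15.5% ± 0.814 (SD, n = 2) in rad50Δ, 14.9% ± 0.861 in mre11Δ and 12.5% ± 0.681 in mre11-H125N. It was 13.5% ± 1.203 in rrp6Δ, 12.1% ± 0.843 in MMS and 12.2% in ku70Δ. The smallest p of these exact two-sided permutation tests against wild type was 0.133, in rad50Δ. With 4 against 2 libraries such a test cannot go below 0.0667, and with 1 library not below 0.200.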

How the data were processed

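Total RNA was measured in 17 libraries of 8 groups. The other 12 samples of the 29 in the series were not analysed here. Per the submitters' processing notes the tools were STAR 2.5.3, SAMtools 0.1.19 and DESeq2 (no version given) with build R64. The deposited signal values are reads per annotated row divided by a size factor per library, as the authors' table holds them. In 16 libraries the values gave whole reads back (100% of values within 0.02 of a whole number). The 25 density columns and 8 group-mean columns were not used.

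Rows with a mean of at least 10 were tested on log2(value + 1) with limma 3.58.1 (R 4.3.3), with trend and robust variances, in 1 fit over all 17 libraries without a replicate block, with Benjamini-Hochberg adjustment over all rows and a threshold of 0.05. Fold changes on this scale understate changes of low rows. The spread of the single ku70Δ library was taken from the other groups. The procedure was tested on simulated data. Shares were compared by exact permutation tests. Tables and plots used Python 3.11.15, pandas 2.3.3, numpy 2.4.6 and matplotlib 3.10.9. Alternatives were pseudocounts of 0.5 and 8, no filter and a mean of at least 50, other scalings, a replicate block, fits of only the groups compared, left-out libraries, an added minimum of 1 log2, and edgeR 4.0.16 and DESeq2 1.42.0 on whole reads. Polycistronic groups used a gap of 500 bases and rows after 3′ ends a window of 300 bases.

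In each comparison up to 6 rows per direction were named, those with the smallest adjusted p among rows that passed and whose libraries did not overlap, besides U3, U14, snR190, snR30, snR10, snR86, snR52, intronic and polycistronic rows and the 3 highest and lowest rows per base. Other rows named in the text were chosen after their values were seen. The members and the gene lists were chosen with earlier results of these data known.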

Additional observations from a re-analysis of the deposited data

Results flagged for a closer look

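Among the 4 wild-type libraries, 1 library lay far from the others, relative to the range of the group, in 2 of the 77 snoRNA rows. For snR18, the C/D RNA inside EFB1, the highest wild-type library was wild type 1 with 21254 normalized reads. For snR49, an H/ACA RNA, the highest was wild type 1 with 43871. Chance sets apart about 1 in 20 groups of this size.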

How the results depend on the processing

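Counts are of snoRNA rows that rose or fell against wild type unless another group is named, and the causes of the moves below were not tested. With factors from the snoRNA rows 21 rose and 21 fell in xrn1Δ, 4 rose in mre11Δ, none fell in mre11-H125N, 1 rose and 2 fell in ku70Δ, 7 rose and 3 fell in MMS, and 12 fell in mre11Δ against mre11-H125N, and snR63 in xrn1Δ turned to a log2 change of 0.10. This scaling centres the snoRNA rows by construction, and it moved the median of all rows by 2.57 (log2) in xrn1Δ. With factors from the coding sums, which moved that median by 0.84 in xrn1Δ and 0.22 in rrp6Δ, 11 rose in rad50Δ, 3 fell in mre11-H125N and 2 fell in ku70Δ. TMM factors gave 2 falls in ku70Δ, and a pseudocount of 8 or a mean of at least 50 gave 0. TMM factors moved the median of all rows in rrp6Δ by -0.13.

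No label says that replicate numbers pair libraries, and groups share at most the numbers 1 and 2. The correlations of deviations of same-numbered libraries ran from -0.33 to 0.45 over 42 pairs, 8 of them over 0.1, and from 0.21 to 0.45 among wild type, rad50Δ and mre11Δ. The block leaves wild type 3 and 4 without a partner, and the median log2 change of the snoRNA rows went from 0.17 to -0.02 in rad50Δ and from 0.10 to -0.13 in mre11Δ, the values against wild type 1 and 2 only. With a replicate block 22 fell in rrp6Δ, 3 rose in mre11Δ, 1 rose and 18 fell in mre11-H125N, 15 fell in ku70Δ, 43 fell in MMS, and 25 rose in mre11Δ against mre11-H125N. In fits of only the groups compared 0 rose and 2 fell in rad50Δ, 0 rose and 2 fell in mre11Δ, 0 fell in mre11-H125N, 17 fell in MMS and 0 fell in mre11Δ against mre11-H125N. Without all libraries numbered 1, 3 fell in rad50Δ, 2 rose and 3 fell in mre11Δ, 0 fell in ku70Δ, and 5 rose in mre11Δ against mre11-H125N. An added minimum of 1 log2 left 0 falls in rad50Δ, 4 rises and 0 falls in mre11Δ, 0 falls in mre11-H125N, 2 falls in MMS, 9 falls in rrp6Δ against rad50Δ and 0 falls in mre11Δ against mre11-H125N. DESeq2 gave 10 falls in mre11-H125N and 2 in mre11Δ against mre11-H125N.

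Choices added after the data were seen were the coding-sum factors and the split of wild type. For the split no shares of all rows are given. Against wild type 1 and 2 only 22 fell in rrp6Δ, 3 rose in mre11Δ, 1 rose and 21 fell in mre11-H125N, 19 fell in ku70Δ and 46 fell in MMS. Against wild type 3 and 4 only 28 rose in rad50Δ, 27 rose in mre11Δ, 1 rose and 2 fell in mre11-H125N, 0 fell in ku70Δ and 8 rose in MMS.

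With 1 library left out at a time, rises and falls ranged from 18 to 27 and 9 to 16 in rrp6Δ, 0 to 0 and 70 to 76 in xrn1Δ, 0 to 14 and 1 to 6 in rad50Δ, 1 to 11 and 3 to 7 in mre11Δ, 0 to 0 and 0 to 5 in mre11-H125N, 0 to 0 and 0 to 4 in ku70Δ, and 1 to 1 and 11 to 34 in MMS. They ranged from 14 to 19 and 6 to 9 in rrp6Δ against rad50Δ and from 2 to 10 and 0 to 0 in mre11Δ against mre11-H125N. A lone library left in a group was assumed to vary like the others.

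The summed share was also measured against ncRNA and snRNA rows. Its log2 difference from wild type was then 0.0017 in rad50Δ, -0.14 in mre11Δ, 1.07 in mre11-H125N, 1.46 in ku70Δ, 0.45 in rrp6Δ and 0.95 in xrn1Δ. Measured against coding rows without the 3 highest members, the difference was -1.86 in xrn1Δ. Against coding rows, leaving out libraries gave -1.69 to -1.57 in xrn1Δ. Of the rows named by the rule, a call was lost in at least 1 alternative for 0 of 12 in rrp6Δ against rad50Δ and 1 of 12 against wild type, for 3 of 6 in xrn1Δ, for all 11 in rad50Δ and all 12 in mre11Δ, for 5 of 7 in MMS, for 6 of 7 in mre11Δ against mre11-H125N, and for the 1 each in mre11-H125N and ku70Δ. Box class from sequence was not run. Low rows such as snR58 limit the precision at these depths.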
